A study of Mus musculus with 34 samples.

Results

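Interferon-stimulated genes are the genes that a cell switches on when an interferon, a secreted antiviral cytokine, binds its receptors. The set described here holds 45 such genes, listed by name with earlier results of these data known. All 45 were found among the 23509 genes counted in each library and among the 15644 genes with enough reads to be tested. They were followed in whole kidneys of 34 mice, all harvested at postnatal day 28 on the C57BL6 background. UNT denotes 12 untreated, non-transgenic mice. PBS denotes 11 Pkd2-KO mice (spelled Pdk2KO in the sample labels) injected under the skin with phosphate-buffered saline. RGLS4326 denotes 11 Pkd2-KO mice given 20 mg per kg of RGLS4326, a short chemically modified oligonucleotide that inhibits the microRNA miR-17, on postnatal days 10, 11, 12 and 19, the days on which PBS was given. In the Pkd2-KO mice, a Cre recombinase driven by the Pkhd1 promoter, which is active in kidney tubule cells, mainly of the collecting duct, deletes floxed Pkd2 there, so that the other kidney cells keep the gene. No group of Pkd2-KO mice went uninjected among the libraries, so the PBS and UNT groups differ in genotype and in injection alike. No library came from mice given a control oligonucleotide. RGLS4326 against PBS therefore cannot tell inhibition of miR-17 from exposure to an oligonucleotide. The labels do not say which mice were littermates.

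Type I interferons signal through the receptor subunits IFNAR1 and IFNAR2 and the kinases JAK1 and TYK2 to a complex that holds STAT2 and IRF9 and binds a short DNA element, the interferon-stimulated response element (ISRE), in the promoters of its targets. Interferon gamma acts through IFNGR1, IFNGR2, JAK1 and JAK2, and many of its targets carry another element, the gamma-activated site (GAS). The products of the target genes recognise foreign nucleic acid, cut or edit RNA, block translation, trap budding virus or mark proteins with the ubiquitin-like ISG15, and in tissue without infection the same genes can be raised by the cell's own nucleic acids or by immune cells.

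The libraries held between 17603122 and 54981992 reads assigned to genes. Levels are given as CPM, the reads of a gene scaled to all reads in genes of its library with the TMM factors of edgeR, and differences as log2 fold changes with their standard error (SE) from 1 edgeR quasi-likelihood fit of all 34 libraries. A gene was called when its p-value, adjusted by Benjamini and Hochberg over the 15644 genes, was under 0.05. Each library was taken as 1 mouse, as the numbered labels imply, although the study states fewer PBS mice for this experiment than there are libraries labelled PBS. Pkd2 itself was lower in the PBS group than in UNT, at −0.78 ± 0.09 on the log2 scale (adjusted p = 1.4e-09, edgeR), in tissue that also holds cells in which the Cre is not active. The names of the deposited tables carry a library number that starts again at 1 in each of 3 numbering sets, and each set holds mice of all 3 groups.

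Of the 45 genes, 39 were called higher and 3 lower in PBS than in UNT kidneys, while 43.1% of all tested genes were called higher and 39.0% lower. The median log2 fold change of the set was 1.05, against 0.04 over all tested genes, and single genes lay between −1.05 for *Samd9l* and 3.78 for *Oas3*. In 24 of the 45, the lowest PBS mouse lay above the highest UNT mouse, as did 22.7% of all tested genes, and in 1, *Samd9l*, the groups separated in the other direction, as did 19.8% of all tested genes. With a log2 fold change beyond 0.5 required as well, 34 genes remained higher (29.6% of all tested genes) and 2 lower (26.6%). The 3 genes that passed in neither direction were *Oas1b*, *Gbp3* and *Sp100*. As the list was chosen with earlier results of these data known, these shares describe the set and are no independent test. In RNA from a whole kidney, more cells of a type and more RNA per cell cannot be told apart.

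**Figure D1:**
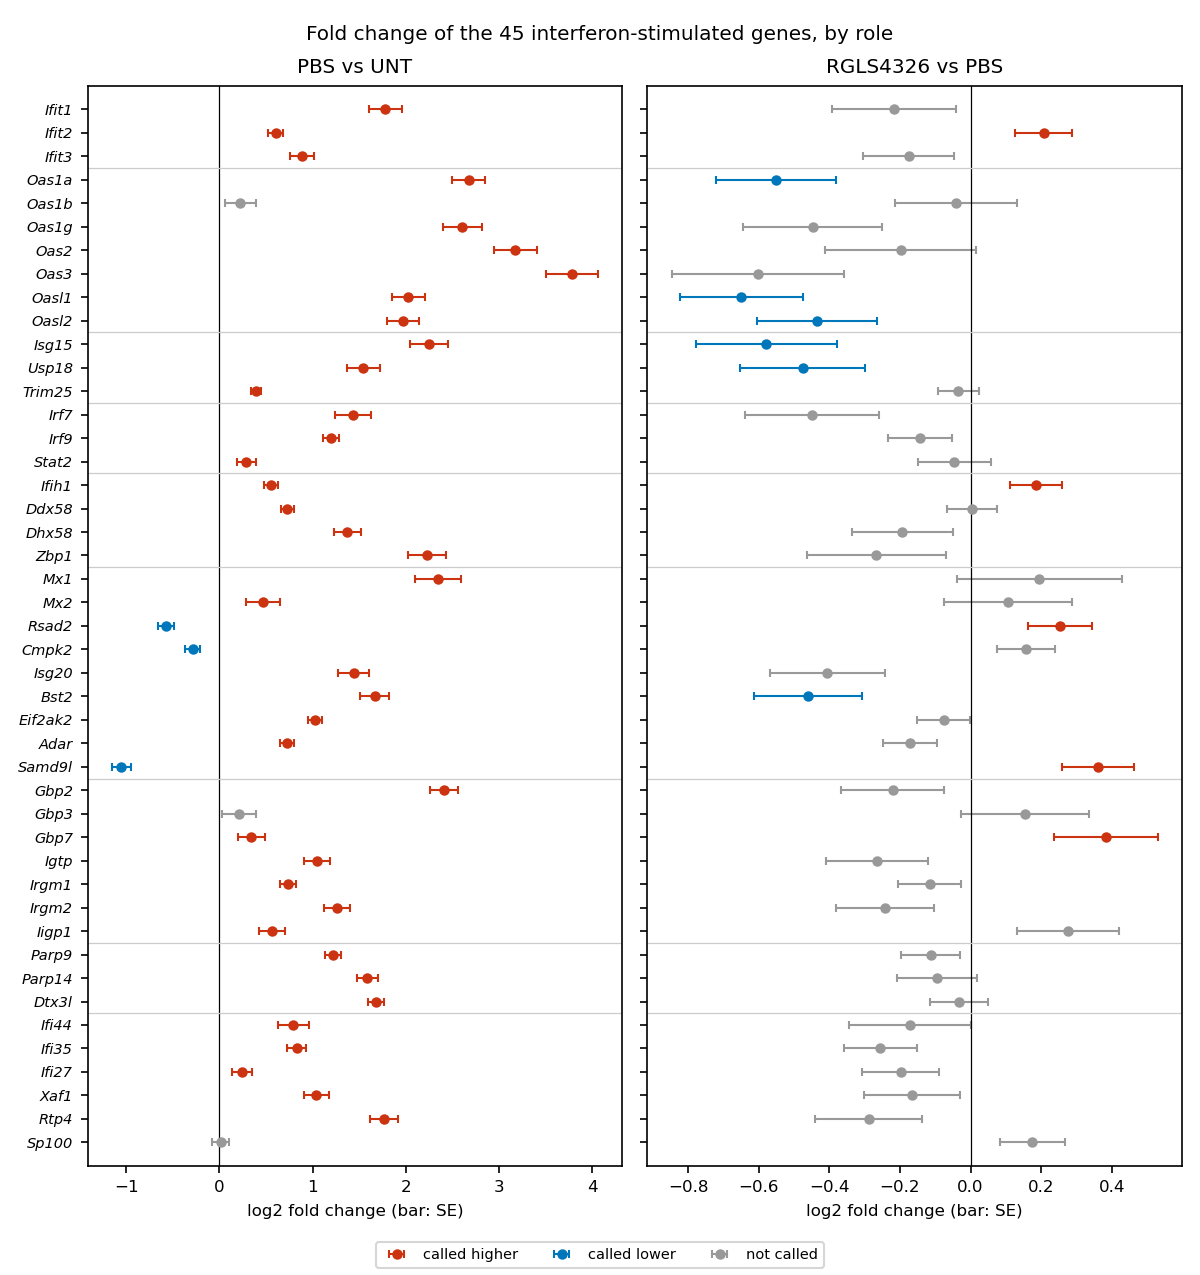
Log2 fold change of each of the 45 genes (point) with its SE (bar) in PBS against UNT and in RGLS4326 against PBS, grouped by role, with separate horizontal scales and colours for the genes called higher, called lower and not called. In the left panel 39 genes are called higher and *Samd9l*, *Rsad2* and *Cmpk2* lower, and in the right panel 5 are called higher and 6 lower.

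The OAS family held the largest increases. These proteins sense double-stranded RNA, and the active enzymes among them make the messenger 2′-5′-oligoadenylate that activates RNase L. *Oas3* ranged from 0.295 CPM (lowest) through 0.507 (median) to 0.810 (highest) in UNT mice and from 1.97 through 7.01 to 13.9 CPM in PBS mice, 13.8-fold higher (log2 3.78 ± 0.28 SE, adjusted p = 1.1e-14, edgeR). It had the lowest mean CPM of the 45 genes in UNT mice but not in PBS mice, and its lowest PBS mouse stood above all 12 UNT mice. *Oas2* went from 3.69, 5.38 and 11.3 CPM (lowest, median and highest) in UNT to 21.6, 59.7 and 80.9 CPM in PBS, a log2 fold change of 3.18 ± 0.23. *Oas1a* went from 2.43, 3.90 and 5.82 CPM in UNT to 12.2, 24.96 and 46.2 CPM in PBS, a log2 fold change of 2.68 ± 0.18. *Oas1g* went from 0.612, 0.943 and 1.77 CPM in UNT to 2.78, 5.94 and 12.0 CPM in PBS, a log2 fold change of 2.61 ± 0.21. In each of these 3 genes the PBS and UNT mice did not overlap. *Oas1a* and *Oas1g* share much of their sequence: 47.6% of the 75-base words of *Oas1a* and 36.9% of those of *Oas1g* occur in the other, so their separate values are uncertain.

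The OAS-like genes rose as well. *Oasl1*, whose product restrains translation of *Irf7*, had 2.39, 3.18 and 3.70 CPM in UNT and 4.98, 12.6 and 19.1 CPM in PBS (log2 2.03 ± 0.18). *Oasl2* had 16.8, 24.2 and 33.8 CPM in UNT and 44.1, 86.6 and 179.7 CPM in PBS (log2 1.97 ± 0.17). Neither overlapped between the groups. *Oas1b*, annotated as a polymorphic pseudogene, was the single member of this family of 7 that was not called, at 3.91, 5.45 and 7.10 CPM in UNT and 3.02, 6.65 and 10.3 CPM in PBS (log2 0.22 ± 0.17, adjusted p = 0.219, edgeR).

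**Figure D2:**
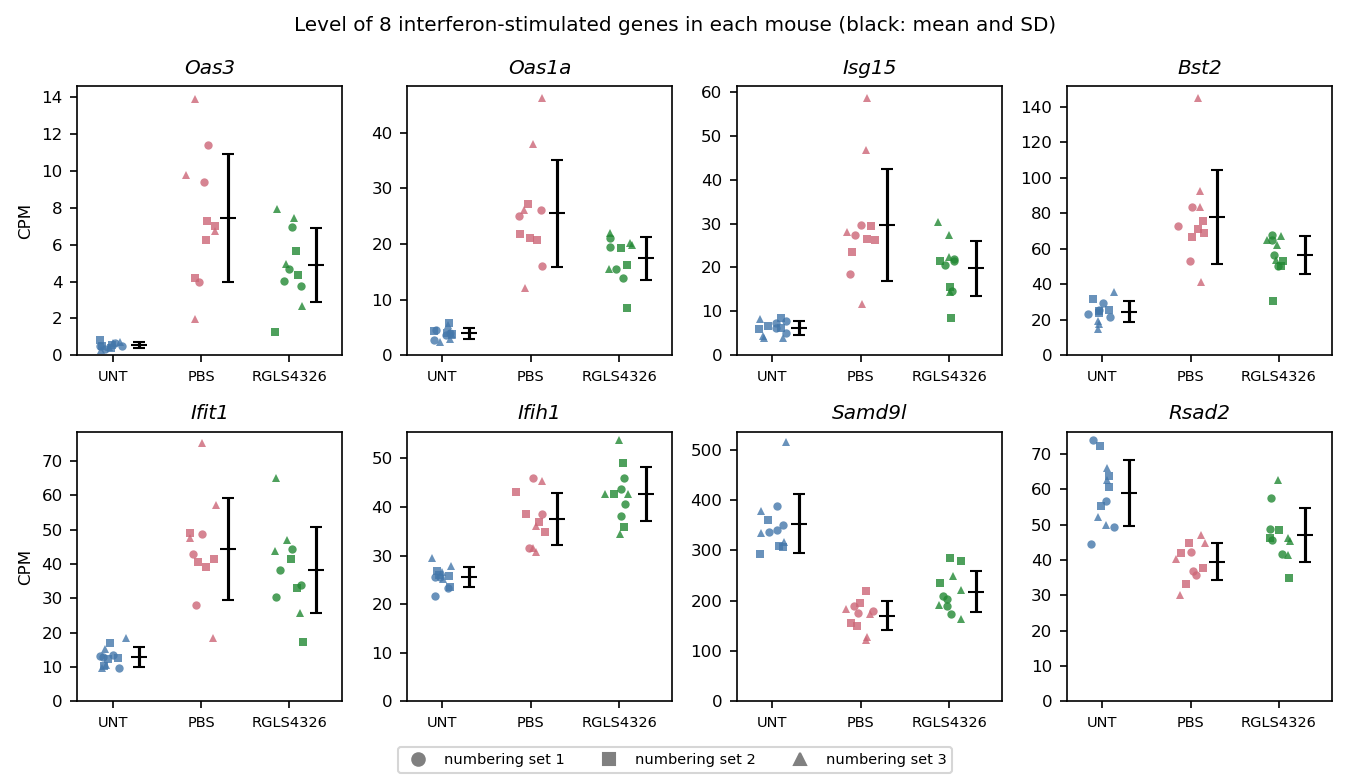
CPM of 8 of the interferon-stimulated genes in each mouse (points, shaped by numbering set of the deposited tables) for the UNT, PBS and RGLS4326 groups, with the group mean and SD beside the points and vertical axes that start at 0. *Oas3*, *Oas1a*, *Isg15*, *Bst2*, *Ifit1* and *Ifih1* are higher in PBS than UNT, *Samd9l* and *Rsad2* are lower, and the RGLS4326 and PBS mice overlap in every panel.

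All 3 IFIT genes, whose proteins bind viral RNA and hinder its translation, were called higher. *Ifit1* had 9.54, 12.6 and 18.3 CPM in UNT and 18.3, 43.0 and 75.2 CPM in PBS, 3.43-fold higher (log2 1.78 ± 0.18, adjusted p = 2.5e-11, edgeR). The lowest PBS mouse lay just above the highest UNT mouse, at the same value when rounded. *Ifit3* had 30.3, 42.5 and 55.8 CPM in UNT and 52.0, 77.6 and 109.2 CPM in PBS (log2 0.89 ± 0.13), so that the groups overlapped. It shares 41.1% of its 75-base words with the neighbouring copy Ifit3b, and its value is uncertain for that reason. *Ifit2* rose least, from a median of 29.2 to 46.4 CPM (log2 0.60 ± 0.08).

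The ISG15 system also rose. *Isg15*, the ubiquitin-like modifier itself, had 3.87, 6.26 and 8.49 CPM in UNT and 11.7, 27.4 and 58.6 CPM in PBS, 4.77-fold higher (log2 2.25 ± 0.20, adjusted p = 2.2e-12, edgeR), without overlap. *Usp18*, the protease that removes ISG15 and damps signalling at IFNAR2, had 4.67, 6.86 and 10.7 CPM in UNT and 10.3, 18.1 and 35.8 CPM in PBS (log2 1.54 ± 0.18), with a slight overlap. *Trim25*, a ubiquitin ligase needed for signalling by RIG-I, was among the most abundant of the 45 in CPM and rose by little, from a median of 90.5 to 119.0 CPM (log2 0.39 ± 0.06, adjusted p = 1.4e-07, edgeR).

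Among the other antiviral effectors, 6 of 9 were called higher. *Mx1*, a dynamin-like GTPase, had 0.418, 1.12 and 1.78 CPM in UNT and 2.11, 5.74 and 8.24 CPM in PBS (log2 2.34 ± 0.25). *Bst2*, the tether that holds budding virus on the cell surface, had 14.6, 24.4 and 36.0 CPM in UNT and 41.4, 72.8 and 145.2 CPM in PBS (log2 1.67 ± 0.15). Both separated the groups. *Isg20*, an exonuclease for RNA, rose by 1.44 ± 0.16 on the log2 scale, *Eif2ak2*, the kinase PKR that halts translation, by 1.02 ± 0.07, *Adar*, the RNA editing enzyme, by 0.73 ± 0.07 and *Mx2*, annotated as a polymorphic pseudogene, by 0.47 ± 0.18.

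The same group of effectors held the 3 genes that fell. *Samd9l*, an inhibitor of translation and cell growth, had 293.3, 338.5 and 516.0 CPM in UNT and 122.2, 174.8 and 218.7 CPM in PBS, so that its PBS level was 0.482 of the UNT level (log2 −1.05 ± 0.10, adjusted p = 1.0e-11, edgeR). The highest PBS mouse lay below the lowest UNT mouse. *Rsad2*, which encodes viperin, an enzyme that makes a chain-terminating nucleotide, had 44.6, 58.6 and 74.1 CPM in UNT and 30.1, 40.4 and 47.0 CPM in PBS (log2 −0.58 ± 0.09, adjusted p = 3.4e-07, edgeR), with some overlap. *Cmpk2*, a mitochondrial nucleotide kinase, had 19.8, 22.2 and 29.8 CPM in UNT and 15.7, 19.5 and 22.9 CPM in PBS (log2 −0.29 ± 0.08, adjusted p = 0.0015, edgeR). *Rsad2* and *Cmpk2* lie side by side on chromosome 12 on opposite strands, 12751 bases apart with 0 genes wholly between them. Scaled by library size alone, which moves the median of all genes by 0.33, the *Cmpk2* difference was 0.01, and relative to that median it was −0.33, *Rsad2* −0.62 and *Samd9l* −1.09.

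Of the 7 interferon-inducible GTPases, large proteins that attack the vacuoles of intracellular parasites and bacteria, 6 were called higher. *Gbp2* had 10.3, 13.1 and 18.1 CPM in UNT and 39.7, 74.2 and 123.8 CPM in PBS, 5.32-fold higher (log2 2.41 ± 0.15, adjusted p = 7.4e-17, edgeR), without overlap. *Irgm2* (1.26 ± 0.14 on the log2 scale), *Igtp* (1.05 ± 0.14), *Irgm1* (0.74 ± 0.09), *Iigp1* (0.57 ± 0.14) and *Gbp7* (0.34 ± 0.14) followed. The *Gbp7* call was kept in 29 of 34 fits that each left out 1 library and in 8 of 11 other alternatives. *Gbp3* was not called (0.21 ± 0.18), and 2 UNT mice, at 54.1 and 56.3 CPM, lay above the highest PBS mouse at 39.0 CPM.

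The ADP-ribosyltransferases *Parp9* and *Parp14* and the ubiquitin ligase *Dtx3l*, which pairs with PARP9, were all called higher, and in none of the 3 did the groups overlap. *Parp14* had 31.0, 40.5 and 49.8 CPM in UNT and 72.2, 120.2 and 189.2 CPM in PBS (log2 1.59 ± 0.11). *Dtx3l* rose by 1.68 ± 0.08 and had the smallest adjusted p of the 45 genes, 1.5e-19 (edgeR), and its mice lay close together, from 13.95 to 20.4 CPM in UNT and from 38.4 to 64.9 CPM in PBS.

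The transcription factors *Irf9* (1.20 ± 0.09 on the log2 scale), *Irf7* (1.43 ± 0.19) and *Stat2* (0.29 ± 0.10) were called higher, as were the 4 nucleic acid sensors, the DNA and RNA sensor *Zbp1* (2.22 ± 0.20), the helicases *Dhx58* (1.37 ± 0.14) and *Ddx58*, which encodes RIG-I (0.73 ± 0.07), and *Ifih1*, which encodes MDA5. *Ifih1* had 21.8, 25.7 and 29.5 CPM in UNT and 30.7, 36.9 and 45.9 CPM in PBS (log2 0.55 ± 0.07), a small difference without overlap between the groups. Of the remaining 6 genes, *Rtp4* (1.77 ± 0.15), *Xaf1* (1.04 ± 0.13), *Ifi35* (0.83 ± 0.10), *Ifi44* (0.79 ± 0.17) and *Ifi27* (0.24 ± 0.11) were called higher and *Sp100*, a component of nuclear bodies, was not (0.01 ± 0.09, adjusted p = 0.889). The *Ifi27* call was kept in 26 of the 34 fits that left out 1 library but in only 5 of the 11 other alternatives: it was lost with DESeq2, RLE scaling, no filter, the covariate for reads outside genes, and in numbering sets 2 and 3 of the tables alone. The *Mx2* call was kept in 33 fits and in 8 of the 11, being lost in each numbering set alone, as was that of *Stat2*. In sets alone, the calls of *Iigp1* (sets 2 and 3), *Ifi44* (set 2) and *Cmpk2* (set 3) were lost too.

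Levels of different genes were compared as mean CPM per kilobase of annotated exon. On this scale *Samd9l* stood first of the 45 in UNT kidneys, at 65.0, followed by *Ifi27* at 44.5, *Bst2* at 27.1 and *Ifit3* at 24.6. In PBS kidneys the order was *Bst2* at 86.1, *Ifi27* at 52.6, *Ifit3* at 45.5, *Isg15* at 39.2 and *Samd9l* at 31.3. *Isg15* stood at position 10 in UNT, at 8.19, and *Oas1a* moved from position 36 in UNT to 17 in PBS, while *Rsad2* moved from position 6 to 27. *Oas3* was last in all 3 groups, at 0.0766 in UNT and 1.05 in PBS. The large ratio of *Oas3* was thus one over a very low level. Of the 45 genes, 17 overlap exons of another annotated gene and 7 share over 5% of their 75-base words with another gene, which limits how exactly reads can be assigned to them.

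Promoter sequences, taken from RefSeq on the build GRCm38.p6 as 250 bases before to 50 bases after the annotated start, were at hand for 33 of the 45 genes. The ISRE letters, TTTC followed by any 2 bases and TTTC again, read on both strands, occurred in 18 of these 33 (54.5%), against 3.99% of all 27025 genes with a window. The GAS letters TTCNNNGAA, which read the same on both strands, occurred in 10 of 33 (30.3%), against 9.55% of all genes. Such a match is a description of the letters and not a site of binding. The stretches below, 60 bases each and written 5′ to 3′ on the strand of the gene with the ISRE letters of either strand in capitals, are a choice from the 18: 7 genes that rose in PBS kidneys, *Oas3* with the largest increase among them, and *Rsad2*, which fell. Those of the other genes, *Ifit3* and *Gbp7* included, are not shown.
Isg15, chr4:156200850-156200909, minus strand: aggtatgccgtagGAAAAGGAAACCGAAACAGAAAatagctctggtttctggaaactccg
Bst2, chr8:71537562-71537621, minus strand: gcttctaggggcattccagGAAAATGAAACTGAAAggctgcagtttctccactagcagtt
Oas3, chr5:120777700-120777759, minus strand: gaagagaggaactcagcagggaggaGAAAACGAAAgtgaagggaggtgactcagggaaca
Oas1a, chr5:120907526-120907585, minus strand: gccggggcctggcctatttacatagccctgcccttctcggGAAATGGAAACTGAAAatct
Oas1g, chr5:120887614-120887673, minus strand: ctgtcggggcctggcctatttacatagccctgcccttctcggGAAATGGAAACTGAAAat
Ifit1, chr19:34640779-34640838, plus strand: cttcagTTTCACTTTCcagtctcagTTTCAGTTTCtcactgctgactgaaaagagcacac
Gbp2, chr3:142620579-142620638, plus strand: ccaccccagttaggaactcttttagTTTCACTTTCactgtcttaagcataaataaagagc
Rsad2, chr12:26456538-26456597, minus strand: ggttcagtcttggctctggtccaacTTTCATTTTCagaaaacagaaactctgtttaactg
In Isg15, 3 matches overlap in 1 run of capitals, and in Bst2, Oas1a and Oas1g 2 matches do. The Oas1a and Oas1g stretches show how alike the promoters of this pair are. Ifit1 holds 2 separate matches. Rsad2 holds the letters too, with the first base of the match 120 bases before the start, although its level was lower in PBS kidneys.

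The genes with and without the ISRE letters are given side by side, and their difference was not tested. Of the 18 genes with them, 16 were called higher and 1 lower in PBS kidneys, with a median log2 fold change of 1.04. Of the 15 genes whose window lacks these letters, 12 were called higher and 2 lower, with a median of 0.83. Over all tested genes, 43.1% were called higher and 39.0% lower. *Oasl1*, *Oasl2*, *Samd9l* and *Cmpk2* were among the 15.

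The genes upstream of the set were measured as well. All 6 receptor genes were called higher in PBS than in UNT kidneys, where 43.1% of all tested genes were called higher and 39.0% lower. *Ifnar1* had 77.1, 80.8 and 89.1 CPM in UNT and 156.3, 170.9 and 195.5 CPM in PBS (log2 1.09 ± 0.04), and its partner *Ifnar2* rose by 0.78 ± 0.06. The interferon gamma receptor genes *Ifngr1* (1.73 ± 0.08) and *Ifngr2* (1.96 ± 0.07) rose more, and the interferon lambda receptor genes *Ifnlr1* and *Il10rb* rose by 1.42 ± 0.09 and 0.63 ± 0.06. Of the 3 receptor kinases, *Jak1* rose by 0.52 ± 0.07 on the log2 scale and *Tyk2* by 0.40 ± 0.07, while *Jak2* was not called (−0.01 ± 0.10).

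Of 6 further interferon regulatory factors 5 were called higher, with the smallest adjusted p for *Irf1* (1.53 ± 0.09), a factor induced by interferon gamma, and 1 lower, *Irf3* (−0.43 ± 0.06). Of 12 genes of the nucleic acid sensing pathway 10 were called higher and 1, *Tbk1*, lower. *Tmem173*, which encodes the adaptor STING, had the smallest adjusted p of these and rose from a median of 5.32 to 54.9 CPM (3.34 ± 0.12). Of 8 inhibitors 6 were called higher and 1, *Ptpn2*, lower. *Socs3*, an inhibitor of cytokine receptors induced mainly through STAT3, rose most, from a median of 2.66 to 79.3 CPM (4.82 ± 0.15). Over all tested genes, 43.1% were called higher and 39.0% lower in PBS kidneys.

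**Figure D3:**
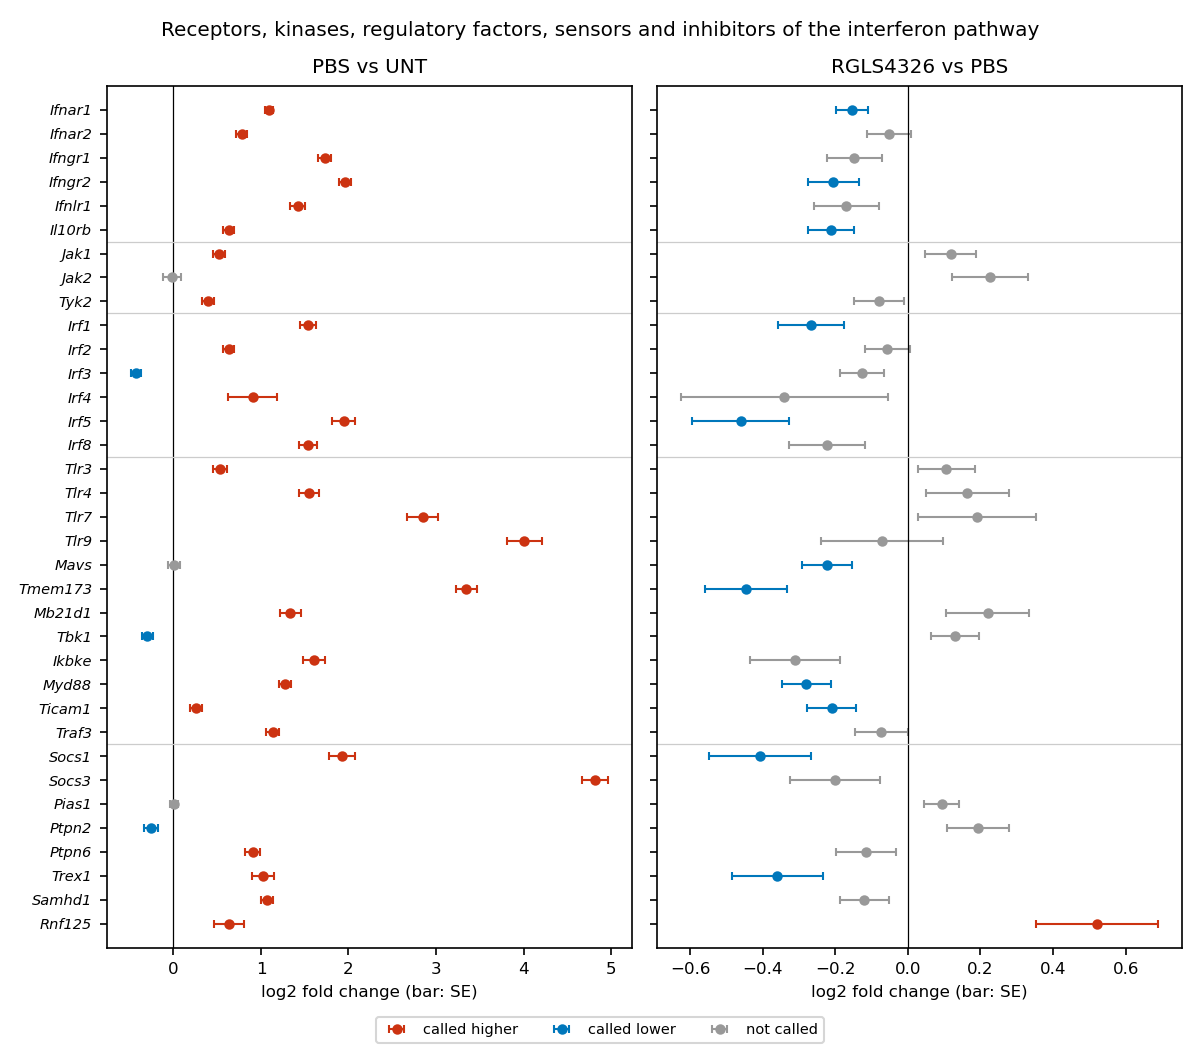
Log2 fold change (point) and SE (bar) of 35 genes of the interferon pathway outside the set, in order receptors, receptor kinases, interferon regulatory factors, sensing genes and inhibitors, for PBS against UNT and for RGLS4326 against PBS on separate horizontal scales. All 6 receptors are called higher in PBS kidneys, *Socs3* lies furthest to the right at 4.82, and after RGLS4326 11 genes are called lower and 1 higher.

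The interferons themselves were barely detected. Of 21 ligand genes listed, 19 were in the tables, 8 had any read, and none passed the filter on low counts. Together they had 19 reads in the 12 UNT libraries, 39 in the 11 PBS libraries and 24 in the 11 RGLS4326 libraries. *Ifnb1* had 0 reads in UNT, 7 in 3 PBS libraries and 6 in 5 RGLS4326 libraries. *Ifng* had 8, 23 and 14 reads in the 3 groups. In the edgeR fit without that filter, which called 71.7% of 20069 genes between PBS and UNT, *Ifnb1* (adjusted p = 0.0147) and *Ifng* (adjusted p = 0.0319) were called higher and *Ifnab* (adjusted p = 0.0284), with 4 reads in 3 UNT libraries and 0 in PBS, lower. The other 5 were not called. Between RGLS4326 and PBS that fit called 0 of the 8, with 1 at an unadjusted p under 0.05, and between RGLS4326 and UNT it called 1, *Ifnb1*, higher (adjusted p = 0.0142). These calls rest on at most 6 reads in any library.

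Markers of several cell types also differed between PBS and UNT kidneys, some higher and others lower. Over all tested genes, 43.1% were called higher and 39.0% lower. The summed level of 7 macrophage markers was 95.2 to 162.3 CPM in UNT and 606.5 to 1528 CPM in PBS, and 7 of 7 were called higher. For T and NK cells the sum of 6 markers was 3.34 to 6.39 CPM in UNT and 11.1 to 31.7 CPM in PBS, with 4 of 5 tested called higher. For 3 general leukocyte markers it was 18.2 to 34.4 CPM in UNT and 142.4 to 314.2 CPM in PBS, with 3 of 3 higher. The median log2 fold change was 4.18 for the macrophage list, 2.80 for the T and NK cell list and 3.13 for the leukocyte list, each above the 1.05 of the 45 genes.

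The sum of 3 neutrophil markers was 0.456 to 4.72 CPM in UNT and 2.79 to 26.9 CPM in PBS, with 3 of 3 higher, although *Cxcr2* was at 0 in at least 1 UNT mouse. Of 4 markers of plasmacytoid dendritic cells, the main source of type I interferon in blood, 2 were higher and 1 lower, at a sum of 49.8 to 70.3 CPM in UNT and 45.2 to 72.1 CPM in PBS. Nearly all of that sum was *Tcf4* (means of 60.2 and 60.5 CPM, not called). *Siglech* rose 7.85-fold, from a mean of 0.247 CPM in UNT to 1.91 CPM in PBS, without overlap, while *Cox6a2* fell from 1.49 to 0.298 CPM. Of 3 B cell markers 0 were higher and 1 lower, at 0.798 to 2.46 CPM in UNT and 0.591 to 1.55 CPM in PBS. Over all tested genes, 43.1% were higher and 39.0% lower.

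Fibroblast markers were higher in 3 of 3 (177.1 to 453.7 CPM in UNT and 1014 to 1985 CPM in PBS) and collecting duct markers in 3 of 3 (423.8 to 737.3 and 808.2 to 2051 CPM). Endothelial markers were split, with 2 of 4 higher and 2 lower (346.0 to 438.2 and 278.3 to 412.9 CPM). Over all tested genes, 43.1% were higher and 39.0% lower. Markers of other nephron cell types were lower: proximal tubule in 4 of 4 (7463 to 10790 CPM in UNT and 583.4 to 2263 CPM in PBS), thick ascending limb in 2 of 2 (5855 to 9485 and 2219 to 4346 CPM) and podocyte in 2 of 2 (120.5 to 154.3 and 31.3 to 56.9 CPM). The defining markers of kidney epithelium were thus present in all 3 groups. The part of these cell types in the differences of the interferon-stimulated genes was not tested.

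The mice of a group differed in the set as a whole. For each mouse, the difference between its log2(CPM + 1) and the UNT mean was taken for each gene, and the median over the 45 genes ranged from −0.333 to 0.282 in UNT mice, from 0.491 to 1.48 in PBS mice and from 0.332 to 1.22 in RGLS4326 mice. PBS mouse 8, at 0.491, had the lowest level of its group in 34 of the 45 genes, and RGLS4326 mouse 6, at 0.332, in 30. PBS mice 9 and 11 each had the highest level of their group in 18 genes and RGLS4326 mouse 9 in 19. PBS mouse 8 lay above the highest UNT mouse in 25 of the 45 genes and RGLS4326 mouse 6 in 20, while PBS mice 3 and 9 and RGLS4326 mice 7 and 9 did so in 39 each.

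**Figure D4:**
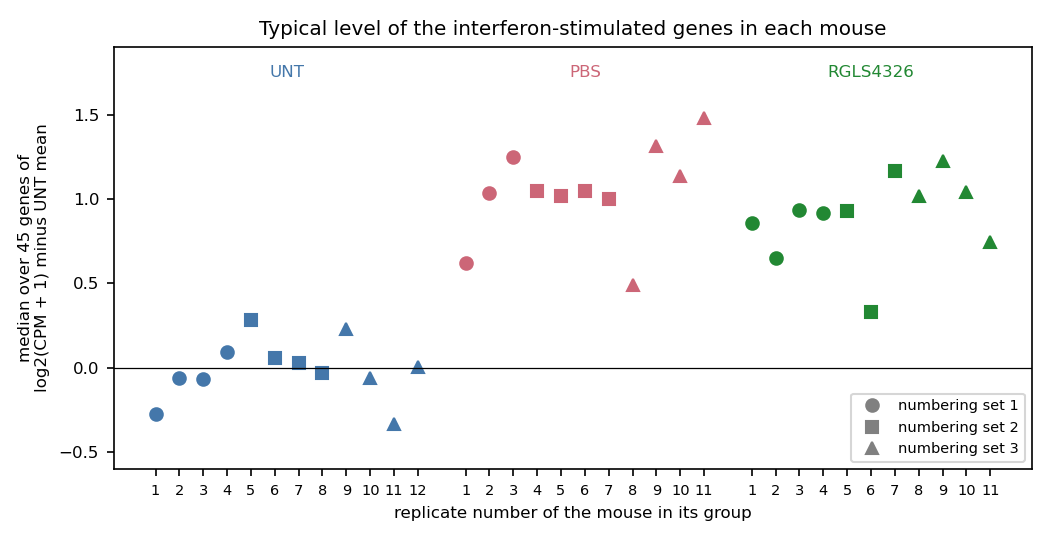
Median over the 45 genes of log2(CPM + 1) minus the UNT mean (vertical axis) in each mouse, ordered by replicate number within UNT, PBS and RGLS4326 (horizontal axis) and shaped by numbering set of the deposited tables. UNT mice lie between −0.333 and 0.282 and PBS mice between 0.491 and 1.48, and the lowest RGLS4326 mouse, number 6, lies at 0.332.

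Within the 3 numbering sets taken one at a time, the difference between PBS and UNT had the same direction. The ratio of group means was above 1 in all 3 sets for 39 of the 45 genes and below 1 in all 3 for 3, and the set medians of the log2 ratio were 1.15, 1.04 and 1.24.

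Between RGLS4326 and PBS kidneys 11 of the 45 genes were called, a smaller share than the 33.8% of all tested genes. Of these, 5 were higher (15.3% of all tested genes) and 6 lower (18.5%), and with the share of reads outside genes as a covariate 0 of the 11 were called by edgeR. The median log2 fold change of the set was −0.17, against 0.00 over all tested genes, and 12 of the 45 values were positive. At an unadjusted p under 0.05, 5 were higher and 12 lower. In 0 of the 45 did the RGLS4326 and PBS mice separate without overlap, as 0.0639% of all tested genes did, and 3 of the 6 lower genes had a log2 fold change beyond −0.5 (3.42% of all tested genes). Both this comparison and the one with UNT use the same PBS mice, so the values of the 2 comparisons for a gene are not independent.

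The 6 genes called lower were 3 of the OAS family, 2 of the ISG15 system and *Bst2*, and each was higher in PBS than UNT. *Oasl1* had the largest difference: 2.92, 7.70 and 11.5 CPM (lowest, median and highest) in RGLS4326 mice beside 4.98, 12.6 and 19.1 CPM in PBS mice (log2 −0.65 ± 0.17, adjusted p = 0.0075, edgeR). *Isg15* had 8.43, 21.4 and 30.4 CPM beside 11.7, 27.4 and 58.6 CPM (−0.58 ± 0.20, adjusted p = 0.0266, edgeR), and *Oas1a* 8.54, 19.2 and 22.0 CPM beside 12.2, 24.96 and 46.2 CPM (−0.55 ± 0.17, adjusted p = 0.0153, edgeR). In each of these the groups overlapped, and both the lowest and the highest treated mouse lay below the lowest and the highest PBS mouse.

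*Usp18* had 7.58, 15.7 and 21.4 CPM in RGLS4326 mice (−0.48 ± 0.18), *Bst2* 30.5, 56.4 and 67.7 CPM (−0.46 ± 0.15) and *Oasl2* 40.4, 68.8 and 91.5 CPM (−0.43 ± 0.17, adjusted p = 0.0471, edgeR). The means were 20.8 ± 8.18 (SD, n = 11) CPM in PBS and 14.9 ± 4.11 (SD, n = 11) CPM in RGLS4326 for *Usp18*, and 77.7 ± 26.5 and 56.5 ± 10.9 CPM for *Bst2*. *Oas3*, with the second largest fall in value (−0.60 ± 0.24), was not called (adjusted p = 0.0539, edgeR), nor were *Isg20* (−0.41 ± 0.16, 0.0509), *Ifi35* (−0.26 ± 0.10, 0.0530), *Irf7* (−0.45 ± 0.19, 0.0632) and *Oas1g* (−0.45 ± 0.20, 0.0738).

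The 5 genes called higher were of several roles. *Samd9l* had 163.6, 209.1 and 285.5 CPM in RGLS4326 mice beside 122.2, 174.8 and 218.7 CPM in PBS mice (log2 0.36 ± 0.10, adjusted p = 0.0102, edgeR), and *Rsad2* 34.8, 46.1 and 62.6 CPM beside 30.1, 40.4 and 47.0 CPM (0.25 ± 0.09, adjusted p = 0.0306, edgeR). These were the pair with the largest falls in PBS kidneys. The others, *Gbp7* (23.3, 30.1 and 50.4 CPM, 0.38 ± 0.15), *Ifit2* (39.8, 52.2 and 70.5 CPM, 0.21 ± 0.08) and *Ifih1* (34.5, 42.7 and 53.9 CPM, 0.19 ± 0.07), were already higher in PBS than UNT and stood higher still after RGLS4326. *Cmpk2*, the neighbour of *Rsad2*, had 19.0, 21.7 and 25.9 CPM and was not called (0.16 ± 0.08, adjusted p = 0.127, edgeR).

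The remaining members did not pass the test in this comparison. *Ifit1* had 17.2, 38.2 and 65.1 CPM in RGLS4326 mice (−0.22 ± 0.18), *Ifit3* 40.4, 70.5 and 105.5 CPM (−0.18 ± 0.13) and *Gbp2* 35.1, 58.5 and 86.4 CPM (−0.22 ± 0.15). *Oas2* (−0.20 ± 0.21) and *Mx1* (0.19 ± 0.23), 2 of the genes raised most in PBS kidneys, had values on either side of 0. *Parp14* (−0.09 ± 0.11), *Trim25* (−0.03 ± 0.06), *Dtx3l* (−0.03 ± 0.08), *Stat2* (−0.05 ± 0.10) and *Ddx58* (0.00 ± 0.07) had values near 0 with narrow errors.

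Of the upstream genes, *Ifnar1* (−0.15 ± 0.04), *Ifngr2* (−0.20 ± 0.07) and *Il10rb* (−0.21 ± 0.06) were called lower in RGLS4326 than PBS kidneys, and 0 of the 3 receptor kinase genes were called by edgeR, with 1, *Jak2* (0.23 ± 0.10), at an unadjusted p under 0.05. Among the regulatory factors 2 of 6 were lower, with *Irf5* (−0.46 ± 0.13) having the smallest adjusted p, and among the sensing genes 4 of 12, with *Myd88* (−0.28 ± 0.07), the adaptor of Toll-like receptors, having the smallest and *Tmem173* falling by 0.45 ± 0.11 on the log2 scale. Among the inhibitors 2 of 8 were lower (*Socs1* and *Trex1*) and 1 higher, *Rnf125* (0.52 ± 0.17), which had the smallest adjusted p. Over all tested genes 18.5% were lower and 15.3% higher. With the share of reads outside genes as a covariate, 0 of these 35 genes were called by edgeR (2 higher and 8 lower at an unadjusted p under 0.05).

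Some marker genes were called between RGLS4326 and PBS too, where 18.5% of all tested genes were lower and 15.3% higher. Macrophage markers were lower in 3 of 7 (554.8 to 1104 CPM summed in RGLS4326 mice), T and NK cell markers in 4 of 5 tested (7.86 to 16.5 CPM), leukocyte markers in 1 of 3 (128.1 to 253.6 CPM), neutrophil markers in 1 of 3 (3.30 to 8.496 CPM) and collecting duct markers in 3 of 3 (404.8 to 1721 CPM). Of the dendritic cell markers *Siglech* was lower and *Tcf4* higher (65.4 to 88.9 CPM summed), and B cell markers (0.563 to 2.03 CPM) and fibroblast markers (1165 to 1754 CPM) had 0 calls in edgeR, and 0 at an unadjusted p under 0.05. Markers were higher for proximal tubule in 3 of 4 (1470 to 2489 CPM), thick ascending limb in 2 of 2 (3365 to 4958 CPM), endothelium in 3 of 4 (359.4 to 453.4 CPM) and podocytes in 2 of 2 (46.2 to 76.8 CPM). With the share of reads outside genes as a covariate, 1 of the 43 markers tested was called by edgeR, *Pecam1* of the endothelial list, higher (11 markers higher and 9 lower at an unadjusted p under 0.05). The part of these cell types in the changes of the 11 called genes was not tested.

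The share of aligned reads that fell in no gene also moved with treatment. It was 9.84 to 11.3% in UNT, 5.18 to 8.995% in PBS and 4.94 to 12.0% in RGLS4326, where 4 mice lay above the highest PBS mouse. Of these 4 mice, 3 were all the treated mice of numbering set 2 (11.3 to 12.0%, beside 5.49 to 8.995% in its PBS mice) and 1 was of set 3. In set 1 treated mice (4.94 to 8.38%) and PBS mice (5.18 to 7.24%) overlapped. With this share as a covariate, edgeR called 0 of the 45 genes in either direction between RGLS4326 and PBS (2 higher and 6 lower at an unadjusted p under 0.05), and 0.569% of all tested genes in place of 33.8%. The 11 log2 fold changes kept their signs, at −0.469 to −0.300 for the 6 lower and 0.099 to 0.256 for the 5 higher genes. The value of *Gbp7* went from 0.38 to 0.099 and that of *Samd9l* from 0.36 to 0.192, while those of *Rsad2* (0.256) and *Ifih1* (0.180) moved little. Among the lower genes, *Bst2* went from −0.46 to −0.300 and *Isg15* from −0.58 to −0.378. Between PBS and UNT the covariate again gave 39 higher and 3 lower, but with *Ifi27* no longer called and *Oas1b* called higher.

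**Figure D5:**
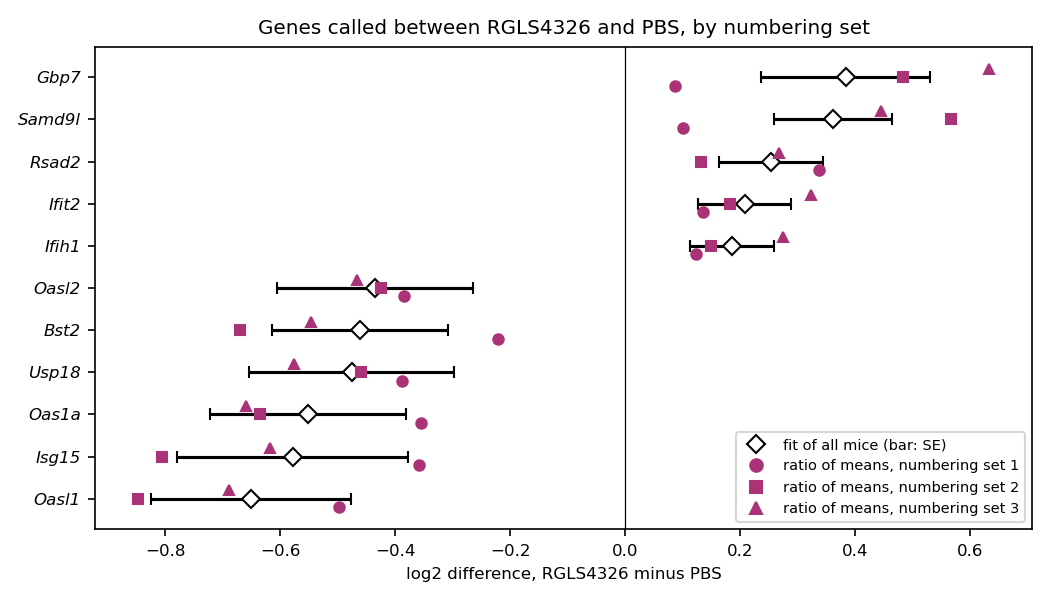
Log2 difference between RGLS4326 and PBS (horizontal axis) for the 11 called genes, as the fit of all mice (diamond, with SE as bar) and as the log2 ratio of group means within each of the 3 numbering sets of the deposited tables. The 3 ratios of each gene lie on the same side of 0, between −0.847 for *Oasl1* and 0.633 for *Gbp7*. The sets hold the same mice that gave the 11 calls, so this is not a replication.

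Within each numbering set, 26 of the 45 genes had a lower mean in RGLS4326 than in PBS in all 3 sets and 11 a higher one, with medians of the log2 ratio of −0.121, −0.187 and −0.127. Set 2 alone gave 1 higher and 4 lower among the 45 in edgeR, where 25.5% of all genes tested were called. Set 1 alone gave 0 (1 higher and 3 lower at an unadjusted p under 0.05) and called 0.343% of all genes tested. Set 3 alone gave 0 (2 higher and 0 lower at an unadjusted p under 0.05) and called 0% of all genes tested. With the numbering set as a term in the fit of all mice, 5 of the 45 were higher and 7 lower, where 37.5% of all tested genes were called: *Oas3* and *Ifi35* were called lower and *Oasl2* was not called.

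Several of these calls changed when 1 library was left out, and DESeq2 called 5 higher and 10 lower. *Oasl2* (adjusted p = 0.0471, edgeR) and *Ifih1* (adjusted p = 0.0486, edgeR) lay close to the threshold. Leaving out some UNT mice lost these calls too. When each of the 34 libraries was left out in turn, *Oas1a*, *Oasl1* and *Samd9l* were called each time, *Bst2* in 33 fits, *Isg15* in 31, *Rsad2* in 29, *Usp18* in 25, *Gbp7* in 22, *Ifit2* in 21, *Oasl2* in 17 and *Ifih1* in 9. The *Oasl2* call was kept in 3 of the 11 other alternatives, and was also lost with library-size scaling and without the filter. The number called lower was 12 without PBS mouse 1, 11 without PBS mouse 8, 2 without PBS mouse 9 and 3 without PBS mouse 11 or RGLS4326 mouse 6. The number called higher was 1 without PBS mouse 2, 4 or 8 or RGLS4326 mouse 9, 2 without PBS mouse 1, 9 or 10 or RGLS4326 mouse 1, 5 or 7, and 3 without PBS mouse 6 or 11 or RGLS4326 mouse 4 or 10.

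Against UNT, 38 of the 45 genes were higher in RGLS4326 kidneys (40.8% of all tested genes) and 2 lower (36.9%), with a median log2 fold change of 0.95, against 0.02 over all tested genes. The largest differences were those of *Oas3* (3.18 ± 0.28), *Oas2* (2.98 ± 0.23), *Mx1* (2.54 ± 0.25), *Gbp2* (2.19 ± 0.15), *Oas1g* (2.16 ± 0.21) and *Oas1a* (2.12 ± 0.18). In 19 genes the treated mice lay wholly above UNT (20.7% of all tested genes). *Samd9l* (−0.69 ± 0.10) lay wholly below, as 16.1% of all tested genes did, and *Rsad2* was lower with overlap (−0.32 ± 0.09, adjusted p = 0.0013, edgeR). The *Rsad2* call was lost with scaling by library size alone (−0.022, adjusted p = 0.826, edgeR) and in numbering sets 1 and 3 alone, and that of *Samd9l* in set 2 alone. Scaling by library size moved the median of all genes to 0.326, and relative to it *Rsad2* lay at −0.347. *Cmpk2* (−0.13 ± 0.08), *Oas1b* (0.18 ± 0.17), *Gbp3* (0.36 ± 0.18), *Ifi27* (0.04 ± 0.11) and *Sp100* (0.19 ± 0.09) were not called. The *Stat2* call (0.24 ± 0.10) was kept in 27 of the 34 fits that left out 1 library and in 5 of the 11 other alternatives, being lost with DESeq2, RLE scaling, no filter and in each numbering set alone. In numbering sets alone, the calls of *Mx2* (each set), *Ifi44* (sets 2 and 3), *Irf7* (set 2) and *Trim25* (set 3) were lost as well.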

How the data were processed

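RNA of whole kidneys was sequenced from poly(A) libraries (TruSeq stranded mRNA) as paired 75-base reads. The authors trimmed reads with TrimGalore, aligned them with STAR to GRCm38 and deposited HTSeq read counts per gene, 1 table for each of 34 mice. Their processing notes name FastQC 0.11.2, SAMtools 1.1, HTSeq 0.6.1 and Picard 1.119, while the gene annotation and strand setting of the counting are not given in the sources used here. The 5 HTSeq totals that name no gene were kept out of library sizes and tests. Of all reads in a table, 4.94 to 12.0% fell in no gene, 0.323 to 0.488% were ambiguous and 14.8 to 25.7% aligned more than once. No 2 tables were identical. Precision was read from the spread between the 11 or 12 mice of a group.

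Groups were taken from the sample labels. Counts were filtered (filterByExpr), scaled (TMM) and tested with edgeR 4.0.16 in R 4.3.3 by the two-sided quasi-likelihood test on 34 libraries, 3 groups and no covariate; the study also used edgeR on counts and names no covariate. SE is the absolute log2 fold change over the square root of the F statistic. The procedure was tested on simulated counts. Gene positions, exon lengths and shared words came from GENCODE M21 on GRCm38, where 45 of 45 symbols matched, and promoters from RefSeq. Alternatives were DESeq2 1.42.0, RLE, upper-quartile and library-size scaling, no filter, the numbering set as a term or alone, the replicate block, a covariate for reads outside genes, and each library left out.

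The 45 genes and the pathway and marker lists were chosen with earlier results of these data known. Values are given for the 6 called genes with the largest change in each direction against UNT, the called genes between RGLS4326 and PBS, the 3 with the highest mean CPM, and *Ifit1*, *Oasl2*, *Ifit3* and *Oas1a*; further genes were named after their values were seen. *Adgre1* was read under its older symbol Emr1. *Ly6g*, *Ifna15* and *Ifna16* were not analysed here. Some genes of the pathway are not reported here.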

Additional observations from a re-analysis of the deposited data

How the results depend on the processing

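Between PBS and UNT, the counts of 39 genes higher and 3 lower stayed within 1.5 times under all alternatives run, and without single libraries lay at 37 to 39 higher and 3 to 3 lower. Between RGLS4326 and UNT, leaving out single libraries gave 37 to 40 higher and 2 to 2 lower. In that comparison, 1 gene in place of 2 was lower with scaling by library size alone, in numbering set 1 alone and in set 3 alone. Between RGLS4326 and PBS, leaving out single libraries gave 1 to 5 higher and 2 to 12 lower in place of 5 and 6. DESeq2 called 10 lower. With a covariate for reads outside genes, 0 were called higher and 0 lower by edgeR (2 and 6 at an unadjusted p under 0.05). Numbering set 1 alone and set 3 alone gave 0 higher and 0 lower, where 0.343% and 0% of all genes were called, and set 2 alone gave 1 higher, where 25.5% were. Scaled by library size alone, the log2 fold change of *Cmpk2* reversed to 0.008 in PBS against UNT and to 0.175 in RGLS4326 against UNT, where that scaling moved the median of all genes by 0.33. The cause of these changes was not tested.

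The groups share replicate numbers, and the labels do not say whether these pair mice. Deviations of same-numbered mice correlated over 0.1 in 2 of 11 pairs of PBS and UNT. They did so in 5 of 11 pairs of RGLS4326 and PBS and 3 of 11 of RGLS4326 and UNT. In 2 of 33 comparisons, a library correlated best with its own number in the other group. These correlations cannot settle whether mice were paired. With the replicate block, 3 genes were higher and 5 lower between RGLS4326 and PBS, with *Ifit2*, *Ifih1* and *Oasl2* not called. Of the log2 fold changes of the 21 genes named by rule, 226 of 231 values in PBS against UNT, 180 of 231 in RGLS4326 against PBS and 225 of 231 in RGLS4326 against UNT kept their direction and side of the threshold under the 11 alternatives beside leaving out libraries, and 709, 621 and 714 of 714 did so when 1 library was left out. The interferon ligands failed the filter on low counts and were tested only without it.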
